A study of Rattus with 6 samples.

Results

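Messenger RNA was sequenced in 6 libraries of H9C2 cells, a line from embryonic rat heart that is widely used as a muscle cell model. Of these, 3 came from cells with a control plasmid and 3 from cells that overexpressed RBM25, which binds RNA and acts with the U1 snRNP where splice sites are chosen. The labels name no other change in either group, and they give no vector, dose, time or clone. They also do not say whether the 3 libraries of a group came from separate cultures, so p-values reflect only how far these libraries spread, and part of that spread may be technical. The comparison asks which of these genes differ in level when RBM25 is raised.

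The genes described here are 33 regulators of exon choice, taken by name from the hnRNP family, the PTB and PCBP proteins, TIA1 and its paralog, and a few related RNA-binding proteins. The rule that names them uses no measured value. The count table lists 32 of them among 20742 genes, and the remaining one, Hnrnpa0, is not listed under that symbol. All 32 passed the filter on low counts, so they are 32 of the 12882 genes tested. In the files' build, mRatBN7.2, they lie on 17 chromosomes, and in RefSeq's gene table of the assembly GRCr8 only Hnrnpdl and Hnrnpd, on chromosome 14, are next to each other.

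Proteins of this kind bind nascent RNA and work for or against SR proteins and the snRNPs at nearby splice sites. The hnRNP A/B and PTB proteins are best known for making exons skip, whereas TIA1 and TIAL1 help the U1 snRNP to use weak sites. Many of these genes also control their own transcripts, or those of a paralog, through exons that lead to nonsense-mediated decay. In muscle and nerve, the balance between the PTB paralogs shifts as cells differentiate. Exon use itself was not analysed here, since the values are totals per gene.

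All RBM25 libraries had more Rbm25 than all controls. Its level was 49.2, 44.5 and 45.7 CPM (reads per 1000000 reads of the library, scaled by its TMM factor) in control replicates 1, 2 and 3, and 56.3, 55.9 and 60.1 CPM in the RBM25 replicates. In edgeR this was a log2 fold change of 0.30 ± 0.047 (SE, n = 3 per group) at an adjusted p of 0.0011, and the exact two-sided permutation test gave p = 0.1, the smallest that 3 against 3 allows. Rbm25l1, an RBM25-like gene, had 1, 1 and 3 reads in control replicates 1, 2 and 3 and 147, 114 and 105 reads in the RBM25 replicates (log2 fold change 5.97; edgeR adjusted p = 7.27e-12). How reads were divided between these similar genes is not known, and whether Rbm25 reads came from the introduced RBM25 or from the cells' own gene cannot be told apart. Without control replicate 2 the call was lost (0.28, edgeR adjusted p = 0.0842). Libraries held 25543849 to 33130256 reads. The muscle line markers Des, Cdh15, Myog, Acta1 and Tnnt2 were each above 1 CPM on average, and the sixth listed, Chrna1, was at 0.282 CPM in controls and 0.195 CPM with RBM25, while Myh6, Myl7 and Ryr2 of adult cardiomyocytes summed to 0.24 to 0.45 CPM in controls and 0.49 to 0.51 CPM with RBM25. Nppa was not listed. Endothelial markers summed to at most 0.13 CPM and epithelial ones to at most 0.035 CPM, and of the leukocyte markers only Cd68 was listed, at 0.27 to 0.29 CPM in controls and 0.32 to 0.60 CPM with RBM25. RBM25 replicate 3 stood apart from replicates 1 and 2 of its group, as the chi-square of their counts, divided by its degrees of freedom, was 6.23 and 4.80, against 3.22 between those libraries. It also held more of the muscle differentiation genes Myog (14.6, 14.9 and 25.6 CPM in RBM25 replicates 1, 2 and 3, against 20.3 to 22.8 CPM in controls) and Tnnt2 (94.1, 94.6 and 137 CPM, with every control library at or below 112 CPM). Acta1 was also highest there, at 12.2 CPM against 8.46 to 10.5 CPM in controls. Des and Cdh15 did not follow. In RBM25 replicate 3 they lay within the control range, Des at 9.48 CPM (controls 8.28 to 10.1) and Cdh15 at 234.7 CPM (controls 210 to 235.5). The part of these marker levels in the results was not tested.

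None of the 32 genes passed the all-gene threshold of an edgeR adjusted p under 0.05, which 0.404% of all tested genes did. The gene nearest to it was Ptbp2, the neuronal PTB paralog, at 0.29 ± 0.081 on the log2 scale (SE; edgeR adjusted p = 0.106). At an unadjusted p under 0.05 there were 8 of the 32 genes, 7 higher and 1 lower, against 11.2% of all tested genes (6.40% higher and 4.78% lower). The 7 were Ptbp2, Tial1, Matr3, Syncrip, Tardbp, Hnrnpll and Hnrnpdl, and the 1 was Hnrnpr. In bulk RNA, fewer cells of a type and less RNA per cell cannot be told apart. DESeq2 also called none, with 6 of the 32 and 913 of all 12882 genes at an unadjusted p under 0.05. In edgeR the count of the 32 dropped to 4 when control replicate 2 was left out and to 5 when RBM25 replicate 2 was. It reached 11 when RBM25 replicate 3 was left out. The count over all tested genes moved the same way. It was 933 of 13147, 1107 of 13074 and 1957 of 13098 in these fits, in that order, against 1441 of 12882 with every library. Without RBM25 replicate 3, edgeR called Ptbp2 (log2 fold change 0.31, adjusted p = 0.0374) and Hnrnpdl (0.12, adjusted p = 0.0369), and 352 genes over the whole table.

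Fold changes ran from -0.14 to 0.29 on the log2 scale, and 27 of the 32 were at most 0.1 in size. The fold change was positive for 18 genes and negative for 14 (median 0.022), where all tested genes had a median of -0.0021 and 48.8% positive. The median was 0.041 without control replicate 1 or RBM25 replicate 3, 0.0069 and 0.0097 without control replicates 2 and 3, and 0.0035 without RBM25 replicate 1, with 17 to 22 genes positive over the 6 fits without 1 library. Intervals were narrow for most of them, judged only by the spread of these libraries, part of which may be technical. The 95% interval of the fold change, taken one gene at a time, lay within 1.2-fold either way for 30 genes. It lay within 1.1-fold either way for 22. The intervals that reached past 1.2-fold were those of Ptbp2 (0.13 to 0.46) and Tia1 (-0.011 to 0.27). The groups did not overlap for 8 genes, 6 higher and 2 lower with RBM25, a share of 25.0% against 16.2% of all tested genes (8.31% higher and 7.94% lower). Groups with fewer libraries separate more easily, and without RBM25 replicate 3 there were 15 such genes, against 30.2% of all tested genes.

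**Figure D1:**
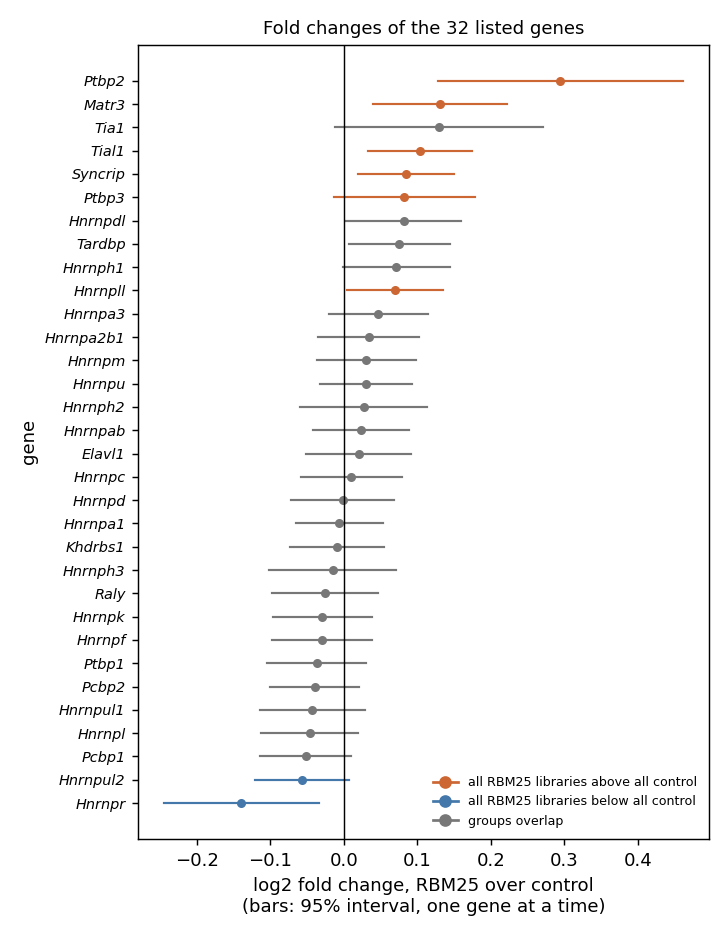
Log2 fold change of each of the 32 genes (RBM25 overexpression over control plasmid, horizontal axis), with bars for the 95% interval of one gene at a time; colours show whether the 3 RBM25 libraries all lay above (6 genes) or below (2 genes) the 3 control libraries. Ptbp2 at 0.29 and Hnrnpr at -0.14 form the ends of the range, and most genes lie within 0.1 of 0.

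As a group, the genes differed less between the group means than the libraries within either group ranged. Averaged over the 32 genes, control replicates 1, 2 and 3 lay 0.035, -0.024 and -0.011 from the control mean in log2 CPM, and RBM25 replicates 1, 2 and 3 lay 0.049, 0.032 and -0.0047 from it. The group means thus differed by 0.025, against ranges of 0.060 within the controls and 0.054 within the RBM25 group. A difference of means and a range are unlike measures, so this is a description only. Control replicate 1 was above RBM25 replicates 2 and 3. It was the highest control for 25 of the 32 genes. In the RBM25 group, replicate 1 was the highest library for 21 and replicate 3 the lowest for 24. All 32 genes together took 0.941 ± 0.0206% of reads in controls (SD, n = 3) and 0.947 ± 0.0185% with RBM25 (SD, n = 3), a difference smaller than the replicate spread.

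**Figure D2:**
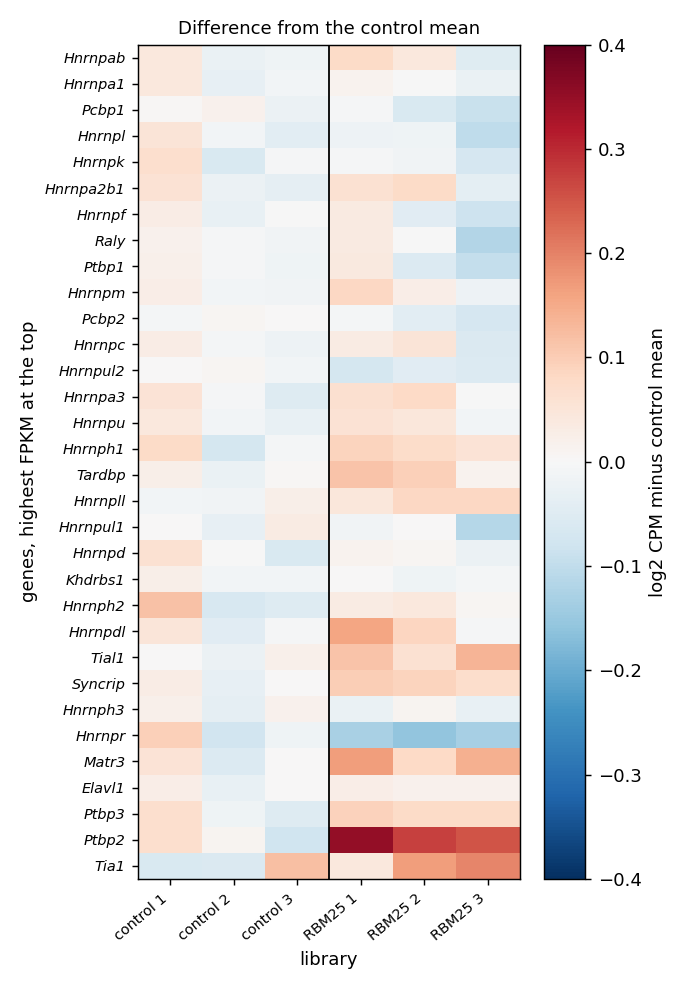
Difference of log2 CPM from the control mean for each gene (rows, highest FPKM at the top) in each library (columns). Ptbp2 is the darkest row in all 3 RBM25 libraries, Hnrnpr is below the control mean in all 3, and the upper rows are mostly below it in RBM25 replicate 3.

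Levels between genes are compared in FPKM, which takes gene length into account. The mean over the 6 libraries ran from 427 FPKM for Hnrnpab to 1.74 FPKM for Tia1, a 246-fold range. The leading 5 genes were Hnrnpab, Hnrnpa1, Pcbp1, Hnrnpl and Hnrnpk, with means of 427, 333, 269, 187 and 152 FPKM. At the lower end were Ptbp3, Ptbp2 and Tia1, with 6.15, 2.74 and 1.74 FPKM, although 273 reads in the shallowest library still stood behind Ptbp2. The libraries overlapped for 15 of the 31 pairs of neighbours in this order. Hnrnpf and Raly had means of 127 and 125 FPKM, with libraries between 122 and 131 FPKM for Hnrnpf and between 117 and 129 FPKM for Raly.

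**Figure D3:**
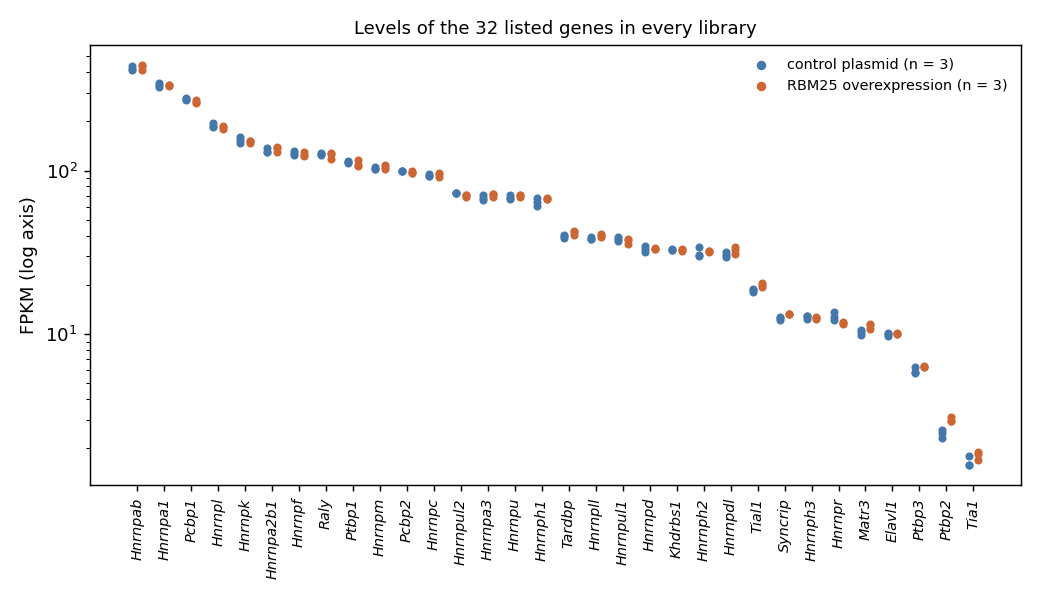
FPKM (log axis) of the 32 genes in every library, ordered by their mean, with control libraries in blue and RBM25 libraries in orange. The levels span from 427 FPKM for Hnrnpab to 1.74 FPKM for Tia1, and the libraries overlap for 15 of the 31 pairs of neighbours in this order.

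The core hnRNP A/B and C proteins coat nascent transcripts and act mostly as silencers of exons. Hnrnpab carries the A/B name but is not one of these core proteins, and its protein also binds DNA. It was at 821, 781 and 788 CPM in control replicates 1, 2 and 3 and at 839, 819 and 770.4 CPM in the RBM25 replicates. Hnrnpa1, the best studied silencer of exons, was at 902, 858 and 871 CPM with the control plasmid and at 885, 875 and 859.7 CPM with RBM25. In both genes the groups overlapped, with control replicate 1 high and RBM25 replicate 3 low. Hnrnpa1 was at -0.0057 ± 0.029 on the log2 scale (SE; edgeR adjusted p = 0.967), with a 95% interval of -0.065 to 0.053, or -4.38% to 3.75%. For Hnrnpab it was 0.024 ± 0.032 (SE; adjusted p = 0.835).

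The other genes described with these 2 mostly had fold changes near theirs. Hnrnpa2b1, a close relative of Hnrnpa1, had a log2 fold change of 0.034, Hnrnpa3 of 0.047, Hnrnpc, whose protein binds runs of U, of 0.010, and Raly, an hnRNP C relative, of -0.026. Hnrnpd, also known as AUF1 and a binder of AU-rich elements, was at -0.0012, the value nearest to 0 of all. Its relative and neighbour Hnrnpdl was at 0.082 ± 0.038 (SE; edgeR adjusted p = 0.412), and the groups overlapped. None of these genes was called by edgeR with all 6 libraries. The table also lists genes described as like Hnrnpa3, of which LOC120096281 and LOC100911361 held 309 to 390 and 459 to 593 reads per library, or 2.88% and 4.47% of the reads of Hnrnpa3. Reads could be split between such copies, and the fold change of Hnrnpa3 is uncertain to that extent.

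The hnRNP H/F proteins bind runs of G, and can promote or silence an exon depending on where they bind. Hnrnpf was at 409.6, 393 and 400.4 CPM in control replicates 1, 2 and 3 and at 411, 388 and 379 CPM in the RBM25 replicates. Hnrnph1 was at 186, 168 and 176 CPM and then at 188, 186 and 183 CPM. Hnrnph1 came close to a separation of the groups, with only control replicate 1 above an RBM25 library, while Hnrnpf overlapped widely. Their log2 fold changes were -0.030 ± 0.033 and 0.071 ± 0.035 (SE; edgeR adjusted p = 0.788 and 0.464). Hnrnph2, on chromosome X, was at 90.9, 80.1 and 80.8 CPM in controls and at 85.8, 86.3 and 84.2 CPM with RBM25. Hnrnph3, the shortest of these proteins, was at 53.2, 51.2 and 53.1 CPM and then at 51.5, 52.9 and 51.4 CPM. Both overlapped between the groups, at log2 fold changes of 0.027 and -0.015. In the ratio of FPKM, Hnrnpf stood at 1.93, 2.05 and 2.00 times Hnrnph1 in controls and at 1.93, 1.84 and 1.81 times with RBM25.

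The hnRNP K and PCBP proteins bind C-rich RNA through KH domains. Pcbp1, encoded by a gene without introns, was at 567, 571 and 556 CPM in control replicates 1, 2 and 3 and at 563, 541 and 531 CPM in the RBM25 replicates. Pcbp2 was at 487, 492 and 489.8 CPM and then at 487, 475 and 467 CPM. RBM25 replicates 2 and 3 were below every control for both, and RBM25 replicate 1 lay among the controls. The log2 fold changes were -0.051 ± 0.030 for Pcbp1 and -0.039 ± 0.029 for Pcbp2 (SE; edgeR adjusted p = 0.556 and 0.656). Hnrnpk was at 591, 539.8 and 561 CPM in controls and at 562, 558 and 538 CPM with RBM25, with wide overlap and a log2 fold change of -0.029. Khdrbs1, which encodes SAM68, a KH protein of the STAR family that binds A- and U-rich RNA, had a log2 fold change of -0.0088 ± 0.031 (SE; adjusted p = 0.948).

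HNRNPL and HNRNPLL bind CA-rich RNA, and HNRNPLL is known for exon skipping in activated T cells. Hnrnpl was at 576, 552 and 539 CPM in control replicates 1, 2 and 3 and at 548, 549 and 518 CPM in the RBM25 replicates. Hnrnpll was at 131, 130.3 and 134 CPM and then at 136, 139 and 139 CPM. The groups overlapped for Hnrnpl, whereas every RBM25 library was above every control for Hnrnpll. Their log2 fold changes had opposite signs, -0.046 ± 0.032 for Hnrnpl and 0.070 ± 0.032 for Hnrnpll (SE; edgeR adjusted p = 0.626 and 0.397). The FPKM ratio of Hnrnpl to Hnrnpll was 4.95 ± 0.224 in controls and 4.57 ± 0.185 with RBM25 (SD, n = 3), and the groups overlapped.

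The PTB proteins bind pyrimidine tracts, and PTBP1 is known to keep the level of its neuronal paralog PTBP2 low by making an exon of Ptbp2 skip. Ptbp1 was at 499, 491 and 487 CPM in control replicates 1, 2 and 3 and at 505, 474 and 460 CPM in the RBM25 replicates. Ptbp2 was at 10.7, 10.3 and 9.67 CPM in controls and at 13.0, 12.3 and 12.2 CPM with RBM25. Ptbp3, best known from blood cells, was at 45.0, 42.4 and 41.4 CPM and then at 45.8, 45.3 and 45.3 CPM. Ptbp1 overlapped between the groups, with RBM25 replicate 1 the highest of all 6, while both other paralogs were higher in every RBM25 library than in any control.

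The value for Ptbp2 was 22.7% higher with RBM25, with a 95% interval of 9.30% to 37.7%, and its unadjusted p of 0.0012 ranked 145th of the 12882 tested genes. Over the alternatives its log2 fold change was 0.21 to 0.33 and its adjusted p 0.0198 to 0.616. These mix scales, as the 0.21 came from log2 of FPKM plus 1. With 0.1 added to FPKM it was 0.28, and on the counts, leaving out 1 library at a time gave 0.26 to 0.33. For Ptbp1 and Ptbp3 the log2 fold changes were -0.037 ± 0.033 and 0.083 ± 0.046 (SE; edgeR adjusted p = 0.73 and 0.522). In FPKM, Ptbp1 stood at 44.4, 45.3 and 48.0 times Ptbp2 in controls and at 37.0, 36.6 and 36.1 times with RBM25, so the ranges did not overlap. The log2 ratio of Ptbp1 to Ptbp2 differed by -0.33 (RBM25 minus control; exact two-sided permutation p = 0.1, the smallest possible, and 0.18 after Benjamini-Hochberg adjustment over the 9 paralog ratios compared). The groups also did not overlap in the ratios of Ptbp1 to Ptbp3 (18.9 ± 0.570 and 17.4 ± 0.737, SD, n = 3) and of Ptbp3 to Ptbp2 (2.43 ± 0.0507 and 2.10 ± 0.0644), nor in those of Hnrnpf to Hnrnph1 and Hnrnph1 to Hnrnph3. These ratios share genes and are not independent of each other. Of the neuron markers, Tubb3 was at 4.87 CPM in controls and 4.62 CPM with RBM25, Syt1 at 0.149 and 0.224 CPM, Rbfox3 at 0.034 and 0 CPM, and Snap25 was not listed.

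**Figure D4:**
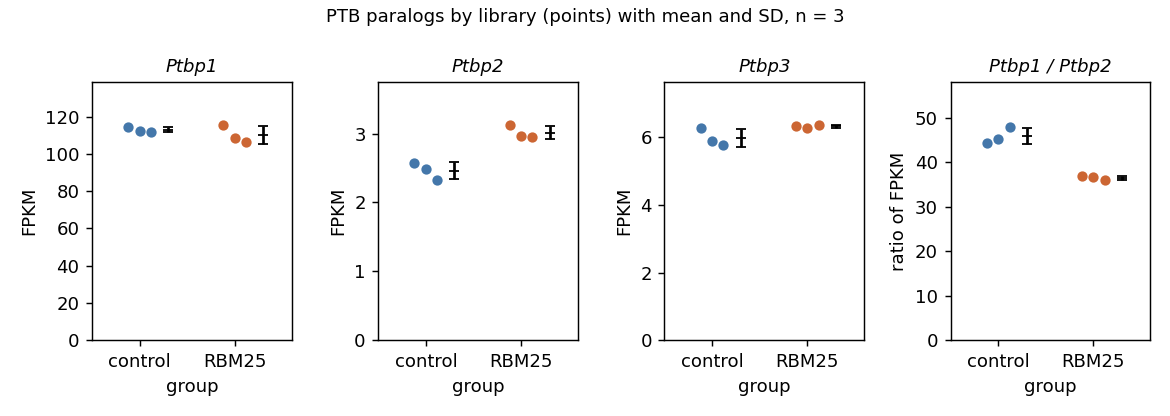
FPKM of Ptbp1, Ptbp2 and Ptbp3 and the ratio of Ptbp1 to Ptbp2 in each library (points, replicates 1 to 3 from left to right), with the mean and SD of each group beside them (n = 3). Ptbp2 and Ptbp3 are higher in all 3 RBM25 libraries than in any control, and the ratio lies between 36.1 and 37.0 with RBM25 and between 44.4 and 48.0 in controls.

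TIA1 and TIAL1 bind U-rich RNA just downstream of the splice sites that the U1 snRNP binds. They recruit this particle, the same one that RBM25 works with. Tial1 was at 18.6, 18.2 and 18.9 FPKM in control replicates 1, 2 and 3 and at 20.0, 19.3 and 20.6 FPKM in the RBM25 replicates. Tia1 was at 1.58, 1.58 and 1.80 FPKM and then at 1.69, 1.85 and 1.91 FPKM. Every RBM25 library was above every control for Tial1, while control replicate 3 was above RBM25 replicate 1 for Tia1. On the counts, the log2 fold changes had the same sign, 0.10 ± 0.034 for Tial1 and 0.13 ± 0.069 for Tia1 (SE; edgeR adjusted p = 0.217 and 0.493). The FPKM ratio of Tial1 to Tia1 was 11.3 ± 0.678 in controls and 11.0 ± 0.727 with RBM25 (SD, n = 3), less apart than the replicate spread.

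Syncrip and Hnrnpr encode close paralogs, hnRNP Q and hnRNP R, which bind AU-rich RNA and take part in mRNA transport as well as splicing. Syncrip was at 155, 149 and 152 CPM in control replicates 1, 2 and 3 and at 163, 162 and 159.5 CPM in the RBM25 replicates. Hnrnpr was at 42.9, 38.1 and 39.7 CPM and then at 36.7, 36.0 and 36.7 CPM. Neither gene overlapped between the groups, and their differences had opposite signs. In edgeR they were 0.085 ± 0.032 in log2 fold change for Syncrip and -0.14 ± 0.051 for Hnrnpr (SE; edgeR adjusted p = 0.285 and 0.278). The FPKM ratio of Syncrip to Hnrnpr, looked at after these values were seen and so not tested, was 0.977 ± 0.0379 in controls and 1.14 ± 0.0179 with RBM25 (SD, n = 3).

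Matr3 encodes matrin 3, a nuclear matrix protein that represses exons and partners PTBP1. It was at 51.6, 47.9 and 49.8 CPM in control replicates 1, 2 and 3 and at 55.9, 52.6 and 54.9 CPM in the RBM25 replicates, with no overlap. The estimate was 9.48% higher with RBM25 (95% interval 2.78% to 16.6%), or 0.13 ± 0.044 on the log2 scale (SE; edgeR adjusted p = 0.227). Tardbp, which encodes TDP-43, a repressor of cryptic exons that limits its own mRNA, had a log2 fold change of 0.076 ± 0.033 (SE; adjusted p = 0.384) and overlapping groups. Elavl1, the stabiliser HuR, was at 0.020 and Hnrnpm, a binder of GU-rich RNA, at 0.031.

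The hnRNP U proteins are scaffold factors that bind chromatin and RNA. Hnrnpu had a log2 fold change of 0.030 and Hnrnpul1 of -0.042. Hnrnpul2 was below every control in all 3 RBM25 libraries, at 206 ± 1.36 CPM in controls and 198 ± 1.63 CPM with RBM25 (SD, n = 3). Its log2 fold change was only -0.057 ± 0.031 (SE; edgeR adjusted p = 0.51).

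Fold changes tended to be higher among the genes with low levels, but not for all of them. Of the 16 genes with the lowest FPKM, 11 had fold changes above 0 (median of the 16, 0.073), and all 8 genes at an unadjusted p under 0.05 were there. Over all tested genes that share was 12.2% in the FPKM range of this lower set and 11.6% in that of the upper set. Of the 16 with the highest FPKM, 7 had fold changes above 0 (median -0.016). Across the 32 genes the level and the log2 fold change had a Spearman rho of -0.53 and a Pearson r of -0.56 (log2 FPKM), where all 12882 tested genes had a rho of -0.12. Over all tested genes, fold changes were above 0 for 38.5% of the 959 in the FPKM range of the upper set and for 46.8% of the 7996 in that of the lower set. These are descriptions across genes that share libraries and depth, and genes are not independent replicates.

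Library by library, with differences taken against the control mean, the rho over the 32 genes was -0.28, -0.49 and -0.65 in RBM25 replicates 1, 2 and 3, where all 12882 tested genes gave -0.034, -0.093 and -0.20. In control replicates 1, 2 and 3 it was -0.067, 0.31 and -0.22, and over all tested genes 0.038, 0.033 and -0.093. All of these values use the same control mean, so they are not independent of each other. The control libraries make up that mean, so their differences sum to 0 for each gene. Without RBM25 replicate 3 the rho of level and fold change was -0.44, with 12 of 16 fold changes above 0 in the lower set and 9 of 16 in the upper set.

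**Figure D5:**
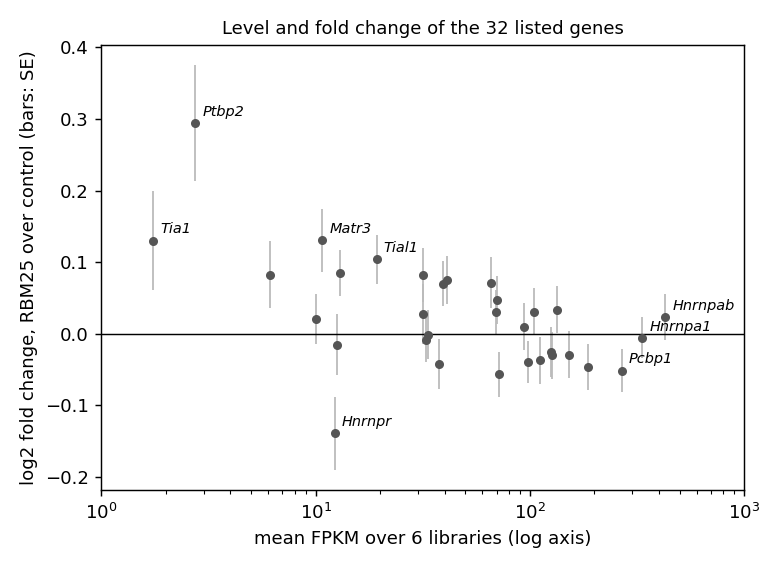
Log2 fold change (RBM25 overexpression over control plasmid, bars show the SE) against mean FPKM over the 6 libraries (log axis) for the 32 genes. The genes above 0.1 (Ptbp2, Tia1, Matr3 and Tial1) all have less than 20 FPKM, and Hnrnpr, also low, lies at -0.14. Of the 16 genes with the lowest FPKM, 5 have fold changes below 0, Hnrnpr among them.

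Related RNA-binding genes, taken from lists of partners and relatives, gave no call either. Of 6 FET and paraspeckle proteins none passed edgeR's all-gene threshold, and 1 had an unadjusted p under 0.05, Pspc1 (log2 fold change 0.15, edgeR adjusted p = 0.296), with Nono, its paraspeckle partner, at -0.055. Among 7 genes for other KH-domain and STAR proteins, 5 were tested and none passed by either measure, and Pcbp4 (-0.064) and Fubp1 (0.060) had the smallest p. Of 19 partners and other regulators, 17 were tested, none passed and 3 had an unadjusted p under 0.05. Fmr1, which encodes the translational repressor FMRP, was the nearest at 35.0 ± 0.588 CPM in controls and 40.6 ± 2.78 CPM with RBM25 (SD, n = 3; log2 fold change 0.22, edgeR adjusted p = 0.0667). Medians of the 3 lists were -0.018, -0.048 and -0.0066.

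Nonsense-mediated decay, which removes the unproductive transcripts of many of these genes, was also covered. Of its 15 listed factors none passed edgeR's all-gene threshold. At an unadjusted p under 0.05 there were 2, 1 higher and 1 lower (13.3%, against 11.2% of all tested genes). The log2 fold change was above 0 for 8 (53.3%, against 48.8% of all tested genes), with a median of 0.030. The groups did not overlap for 3 (20.0%, against 16.2% of all tested genes). The factors with the smallest p were Upf3b, an exon junction partner of UPF2, and Upf1, the core helicase. Upf3b was at 22.2, 20.2 and 21.4 CPM in control replicates 1, 2 and 3 and at 23.8, 25.6 and 26.4 CPM in the RBM25 replicates, without overlap. In edgeR, Upf3b had a log2 fold change of 0.25 ± 0.063 (SE) with an adjusted p of 0.0768, and Upf1 one of -0.091 ± 0.041 (SE) with an adjusted p of 0.387.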

How the data were processed

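The deposited tables hold raw read counts and FPKM per gene, the latter rounded to 2 decimals by the authors. In the submitters' processing notes, the named tools are HISAT2 and DESeq2, and the build is mRatBN7.2. The sources used here do not give the program that counted reads, its annotation or its use of strand, so genes with near-identical copies or overlapping antisense genes are uncertain. Per the labels' protocols, libraries were poly(A)-selected and strand-marked.

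Tests on the counts of all genes ran in edgeR 4.0.16 (R 4.3.3): filterByExpr (minimum count of 10), TMM scaling, glmQLFit (robust) with no covariate beside group, glmQLFTest, and Benjamini-Hochberg adjustment over 12882 genes. The SE is the log2 fold change divided by the square root of F. CPM were scaled by TMM factors. The code was tested on simulated data. Alternatives used DESeq2 1.42.0 and limma 3.58.1 (log2 of FPKM plus 1 or 0.1).

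Members and lists were chosen with earlier results of these data known. Values in every library are given for the 5 genes with the highest FPKM, the 5 with the smallest p, the 3 lowest and the listed paralog sets; for related lists, the 2 with the smallest p, of which 1 is not reported here. Ratios use FPKM, and their tests log2 CPM.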

Additional observations from a re-analysis of the deposited data

How the results depend on the processing

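Over 14 alternatives the 32 genes gave 448 fold changes, of which 433 kept their sign and their side of the threshold, 4 passed it and 11 changed sign without passing. Over all tested genes, the deviations of same-numbered libraries correlated at 0.054, -0.067 and -0.0059, and those of other pairs at -0.072 to 0.080. For the 32 genes, replicate 1 was the highest of its group for 25 in controls and for 21 with RBM25. Whether the replicate numbers pair the libraries is thus not settled. A replicate block called 436 genes in all and 2 of the 32, Ptbp2 (0.29, edgeR adjusted p = 0.0198) and Tial1 (0.10, adjusted p = 0.0465). Leaving out 1 library at a time gave 5 to 352 genes called in all and 0 to 2 of the 32, with a fold change of 0.27 to 0.35 for Rbm25. No filter on low counts gave 205 genes called in all and Hnrnpd at 0.0016. On FPKM with limma-trend, 2 genes were called at a pseudocount of 1, 3 at 0.1 and 6 at 1 with no filter, and Rbm25 did not pass (0.28, 0.30 and 0.28; adjusted p = 0.239, 0.211 and 0.57). Signs changed when 1 library was left out for Hnrnpa1 (-0.020 to 0.017), Hnrnpd (-0.029 to 0.032), Hnrnpk (-0.058 to 0.0074), Khdrbs1 (-0.013 to 0.0041), Hnrnph2 (-0.0030 to 0.089), Hnrnpab (-4.91e-04 to 0.058), Hnrnpc (-0.0092 to 0.043) and Raly (-0.056 to 0.018); the cause was not tested. Adding the reads of near-identical copies to their named gene, an alternative chosen after seeing the data, moved no call of the 32. Depth limits Tia1 and Ptbp2 most, with 273 to 679 reads per library and the largest SEs.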
